A study of Mus musculus with 8 samples.

Results

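Bacterial phyla with a Gram-negative cell envelope, each a smaller part of the mouse gut community than Bacteroidota and Bacillota, are described here in stool of Gpr15l knockout and control mice. They are Pseudomonadota, Campylobacterota, Thermodesulfobacteriota, Deferribacterota and Verrucomicrobiota. Their members were chosen by name alone: every amplicon sequence variant (ASV, a distinct 16S read sequence) with at least 1 read whose deposited phylum is one of these, leaving out a mitochondrial variant that carries a bacterial phylum name. This gave 35 ASVs of the 434 with reads, and they held 101197 of 914504 reads (11.1%). Pseudomonadota supplied 17 of the 35, Thermodesulfobacteriota 8, Campylobacterota 4, Deferribacterota 3 and Verrucomicrobiota 3. They fell into 13 named genera and 4 groups without a genus name, and none of the 35 had a species name. An ASV is called by its position in the deposited table, which gives a taxonomy string for each variant and no sequence.

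Stool was taken from 8 female mice of unstated age after 8 weeks in which littermates of both genotypes shared cages. The 4 knockouts (ko) were Gpr15l-/-, lacking the gene of a secreted protein that binds GPR15, a receptor that guides lymphocytes to the gut, and the 4 controls (wt) were littermates. Mice are named knockout 1 to 4 and control 1 to 4 in deposit order, which pairs no knockout with a control, and the labels give no cage, litter or sequencing run. Each mouse gave 1 library, in which the V4 stretch of the bacterial 16S rRNA gene was amplified by PCR and sequenced.

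These phyla include the bacteria best known for living in or beside intestinal mucus. Helicobacter swims through mucus with a spiral body, Mucispirillum colonises the mucus layer of rodents, and Akkermansia feeds on mucin. Desulfovibrio and Bilophila release hydrogen sulfide, from sulfate and from the sulfite of taurine respectively, while Turicimonas and its relative Parasutterella are Sutterellaceae of the mouse gut that ferment few sugars. Stool contains shed and luminal bacteria, so nearness to the mucosa is background for these genera and was not measured.

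Library size bears on every value. The mean depth was 161504 ± 44242 reads per knockout and 67122 ± 37701 reads per control (SD, n = 4 each), and the shallowest knockout library (129792 reads) exceeded the deepest control library (122026 reads). Depth thus moved with genotype, and their effects cannot be told apart. Depth was entered as a term (log2 library size) in alternative fits, which cannot separate it from genotype. Knockout 3 and control 4 form a pair of nearly matched depth, but a single mouse of each genotype cannot do so either. No share of a member in a single mouse had a 95% Wilson interval wider than ± 0.238 percentage points, or ± 0.103 points where the share was below 1%. Without molecular identifiers PCR copies are not separate molecules, and these limits cover counting error alone. A count of 0 allows up to 3 reads of the total, from 0.00132% in knockout 1 to 0.00778% in control 2. Shares are parts of a whole: a taxon can lose share because another gained, and bacterial load was not measured.

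As a whole the 5 phyla took up overlapping parts of the community in the genotypes. They made up 15.9, 8.89, 5.61 and 11.8% of reads in knockouts 1 to 4 and 11.6, 8.09, 8.98 and 11.2% in controls 1 to 4, or 10.6% ± 4.38 against 9.97% ± 1.71 (SD, n = 4 each). The groups overlapped, and the knockouts contained both the highest and the lowest value. Most reads belonged to a pair of genera. With every mouse weighted equally, Helicobacter had a mean share of 4.70% of all reads and Turicimonas 4.48%, while in pooled reads, where the deeper knockout libraries count for more, Turicimonas held 50.1% and Helicobacter 40.4% of member reads. Mean shares were 0.550% for Desulfovibrionaceae without a genus name, 0.190% for Mucispirillum, 0.174% for Rhodospirillales without a family name and 0.109% for Desulfovibrio. The other 11 groups were rarer.

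**Figure D1:**
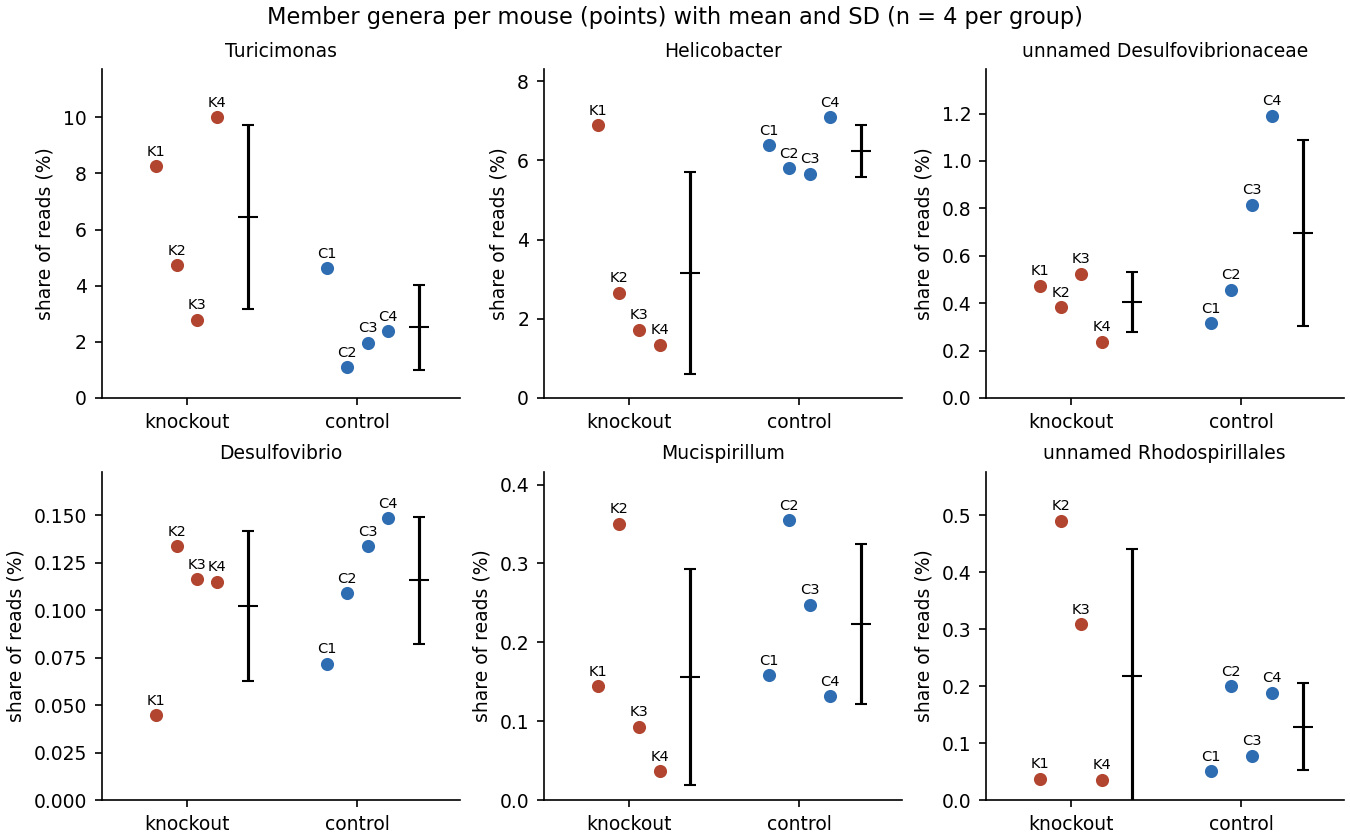
Share of all reads (%, linear axes that start at 0 and differ between panels) of the 6 largest member genera or unnamed groups in each mouse; K1 to K4 are knockouts, C1 to C4 controls, and the black bars are mean and SD (n = 4 each), cut off at 0 where the SD exceeds the mean. Turicimonas reached 10.0% in knockout 4, and Helicobacter lay between 5.67 and 7.09% in the 4 controls and at 1.34 to 2.65% in 3 knockouts, with knockout 1 at 6.89%.

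No member passed the test between genotypes. The whole table was fitted with edgeR, a count model, for variants and genera that reached 10 reads in 3 or more mice, and p-values were adjusted over all units tested with a threshold of 0.05. Of the 35 member ASVs, 16 entered the test and 0 were called, where 0 of all 265 ASVs tested (0%) were called. At an unadjusted p below 0.05 there were 3 member ASVs, against 34 of 265 (12.8%) in all, and 2 members had shares that did not overlap between the genotypes, against 26 of 265 (9.81%). Of the 3, ASV2924 entered the test only through reads in knockouts; without the ASVs that entered through 1 genotype only, the numbers were 2 of 15 members and 28 of 256 in all. These counts lie close to the rates of all ASVs. Of the member genera or unnamed groups, 10 were tested and 0 were called, against 1 of 76 (1.32%) in all, a genus outside these phyla. Turicimonas alone of the 10 had an unadjusted p below 0.05, against 6 of 76 (7.89%), and none of the 10 had groups that did not overlap, against 4 of 76 (5.26%).

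Fitted fold changes moved with the scaling between libraries. Factors by TMM (trimmed mean of M-values) ran from 0.52 in knockout 1 to 1.38 in knockout 3, and with them 12 of the 16 member ASVs had a log2 fold change (knockout over control) above 0, and their median was 0.52 where that of all 265 was 0.19. With library totals only, 7 were above 0 and 9 below, with medians of -0.071 and -0.33. The 16 include ASV2924, which entered the test only through reads in knockouts, so the filter fixed its direction above 0. The 10 genera split into 8 above and 2 below 0 with TMM (median 0.30 against 0.056 for all 76), and into 3 and 7 with totals only (median -0.14 against -0.33). When log2 library size was a term of the model, 0 of the 16 ASVs had an unadjusted p below 0.05, against 8 of all 265 (3.02%). Of the 10 genera 1 did (unnamed Desulfovibrionaceae, log2 fold change -1.83, edgeR adjusted p = 0.996), against 2 of 76 (2.63%). Depth and genotype moved together, so this fit cannot tell them apart. Lost or reversed differences under it therefore do not show that depth made them.

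Pseudomonadota was the phylum with the largest difference of mean shares among the 5, and it was higher on average in knockouts. It made up 8.32, 5.30, 3.13 and 10.1% of reads in knockouts 1 to 4 and 4.70, 1.32, 2.10 and 2.58% in controls 1 to 4, or 6.70% ± 3.09 against 2.67% ± 1.45 (SD, n = 4 each). The groups overlapped through knockout 3 and control 1. The pair of nearly equal depth had 3.13% (knockout 3, the lowest knockout) and 2.58% (control 4). The difference of 4.03 percentage points had a two-sided exact permutation p of 0.0571 over the 70 assignments of the mice, and 0.4 after adjustment over the 7 phyla whose mean share reached 0.1%. With 4 mice per group, complete separation of a single phylum on its own would not reach an adjusted p below 0.05 in this test. In edgeR fits of counts summed per phylum, the log2 fold change of Pseudomonadota lay between 1.06 and 2.12. The 8 fits differed in scaling, phyla tested and the place of the mitochondrial variant. Their edgeR adjusted p ran from 0.00876 to 0.471, and 3 of the 8 called Pseudomonadota. Those 3 all used the TMM factors of the ASV table, and 2 of them were tested over the larger phyla only.

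Turicimonas carried this phylum. It took 8.27, 4.72, 2.79 and 10.0% of reads in knockouts 1 to 4 and 4.62, 1.09, 1.96 and 2.37% in controls 1 to 4, a mean of 6.45% ± 3.28 against 2.51% ± 1.50 (SD, n = 4 each). Knockouts 1, 2 and 4 lay above all controls, and knockout 3 lay below control 1. The fitted log2 fold change was 2.30 ± 0.77 (SE), with an unadjusted p of 0.0179 and an adjusted p of 0.326 with edgeR. In 19 alternative fits it stayed above 0, between 1.25 and 2.84, with adjusted p from 0.169 to 0.996. The lowest value came from the fit with log2 library size, and totals only gave 1.36. In the pair of nearly equal depth, knockout 3, the lowest knockout, had 2.79% and control 4 had 2.37%. Leaving out knockout 1 gave 1.55 and leaving out control 2 gave 2.02.

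Turicimonas had 6 ASVs, of which 2 occurred in every mouse. ASV3458, its main variant, made up 6.93, 4.17, 2.51 and 8.96% of reads in knockouts 1 to 4 and 4.28, 0.975, 1.76 and 2.09% in controls 1 to 4. ASV3452 made up 0.695, 0.532, 0.287 and 1.05% in knockouts 1 to 4 and 0.325, 0.117, 0.203 and 0.283% in controls 1 to 4. The groups overlapped in both variants because control 1 lay above knockout 3, and for ASV3458 also above knockout 2. Their log2 fold changes were 2.11 ± 0.73 and 2.24 ± 0.69 (SE), with unadjusted edgeR p of 0.0197 and 0.0112 and adjusted p of 0.257 and 0.228.

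The 2 common Turicimonas variants kept nearly the same proportion in all mice. Reads of ASV3452 per read of ASV3458 numbered 0.1004, 0.127, 0.114 and 0.118 in knockouts 1 to 4 and 0.0761, 0.120, 0.115 and 0.135 in controls 1 to 4. Over the 8 mice the log2 of this ratio had an SD of 0.26. The median SD of 613 within-genus pairs of ASVs found in every mouse was 1.14, and only 7 pairs had a smaller SD. The pairs were not matched by number of reads. Counting error alone widens the SD of rarer pairs, so this rank depends in part on abundance. Control 1 was the lowest: ASV3452 made up 7.07% of the 2 variants there (95% Wilson interval 6.07 to 8.22%), and between 9.12 and 11.9% in the other 7 mice. The remaining Turicimonas variants were each found in a single mouse. ASV3462 had 1445 reads in knockout 1 (0.638% of its library and 7.71% of its Turicimonas reads), ASV3611 had 16 reads in the same mouse, ASV3463 had 28 in knockout 2 and ASV3455 had 7 in control 1. The main variant held 87.8% ± 2.77 of Turicimonas reads in knockouts and 89.9% ± 1.93 in controls. This difference was below the SD of the knockouts and above that of the controls (two-sided exact permutation p = 0.429, adjusted p = 0.686 over 30 genera with at least 2 tested variants).

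Other Pseudomonadota were rare. Rhodospirillales without a family name, relatives of spiral alphaproteobacteria, made up 0.0375, 0.490, 0.308 and 0.0359% of reads in knockouts 1 to 4 and 0.0507, 0.200, 0.0776 and 0.188% in controls 1 to 4. Knockouts 2 and 3 were the highest of all mice and knockouts 1 and 4 the lowest, so the group means of 0.218% ± 0.222 and 0.129% ± 0.0759 (SD, n = 4 each) describe few of the animals (log2 fold change 0.81 ± 0.79 SE, edgeR adjusted p = 0.958). Without knockout 2 the log2 fold change was 0.14, and without control 3 it was 0.41. Its variant ASV2498 had 13, 510, 400 and 54 reads in knockouts 1 to 4 and 24, 75, 47 and 230 in controls 1 to 4 (log2 fold change 0.66 ± 1.08, adjusted p = 0.988). Rickettsiales without a family name, an order of bacteria that live inside host cells, consisted of ASV2464 with 4 to 47 reads in each of the 8 mice (log2 fold change 0.39 ± 1.16, adjusted p = 0.999). Escherichia-Shigella, the facultative anaerobes that can bloom in an inflamed gut, had 9, 35, 16 and 6 reads in knockouts 1 to 4 and 10, 0, 12 and 7 in controls 1 to 4, all from ASV2868. Its shares were 0.0114% ± 0.009999 against 0.0117% ± 0.0104 (SD, n = 4 each), and the groups overlapped.

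Parasutterella had 33 reads in knockout 2, 7 in knockout 4 and 10 in control 4. Haemophilus and Rodentibacter, relatives of Pasteurella, had 4 reads in knockout 1 and 3 reads in knockout 3. Comamonas, Bosea and Sphingopyxis, genera of water and soil, had 2 reads in 1 mouse each. Of a chosen list of 14 Pseudomonadota genera that are common in reagents, Comamonas was the only one with reads. Bosea and Sphingopyxis were not on that list. Of 9 related gut genera looked for by name, Parasutterella and Escherichia-Shigella had reads, and Sutterella, Klebsiella, Proteus, Enterobacter, Citrobacter, Campylobacter and Lawsonia had 0.

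Campylobacterota consisted of Helicobacter only. The genus made up 6.89, 2.65, 1.72 and 1.34% of reads in knockouts 1 to 4 and 6.39, 5.80, 5.67 and 7.09% in controls 1 to 4, or 3.15% ± 2.56 against 6.24% ± 0.649 (SD, n = 4 each). Knockouts 2 to 4 lay below all controls and knockout 1 lay within their range, so the spread was wide in knockouts and narrow in controls. The difference of -3.09 percentage points had a two-sided exact permutation p of 0.114 and an adjusted p of 0.4 over 7 phyla. The edgeR fit gave a log2 fold change of 0.047 ± 0.77 (SE, adjusted p = 0.989) for the genus, and the sign depended on the setting: it turned to -0.98 with library totals only, to -2.24 with log2 library size in the model, and to -1.70 without knockout 1 (adjusted p = 0.0935). Knockout 1 had the smallest TMM factor of the genus table, 0.436, and its share of Helicobacter was the highest of the knockouts.

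Helicobacter had 4 ASVs, and the total hid different variants in different mice. ASV2881 made up 1.43, 1.60, 1.29 and 0.690% of reads in knockouts 1 to 4 and 6.05, 4.44, 2.07 and 3.71% in controls 1 to 4. Every knockout lay below every control, and the means were 1.25% ± 0.395 and 4.07% ± 1.65 (SD, n = 4 each). It is one of the 2 member ASVs whose groups did not overlap (9.81% of all ASVs tested). The log2 fold change of -1.11 ± 0.58 (SE) did not pass, with an unadjusted p of 0.0901 and an adjusted p of 0.487 with edgeR. In 18 alternative fits it stayed below 0, between -1.70 and -0.84, with adjusted p from 0.241 to 0.985. With log2 library size in the model it was -1.21. In the pair of nearly equal depth, control 4 had 3.71% and knockout 3 had 1.29%. Because the groups did not overlap, any pair of a knockout and a control had to show this direction.

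ASV2890, the second Helicobacter variant by mean share (1.74%, against 2.66% for ASV2881), was spread differently. It made up 5.06, 0.540, 0.348 and 0.600% of reads in knockouts 1 to 4 and 0.256, 1.10, 3.40 and 2.64% in controls 1 to 4. Knockout 1 and controls 3 and 4 were high, and the groups overlapped fully (log2 fold change 0.96 ± 1.14 SE, edgeR adjusted p = 0.906, and -1.41 without knockout 1). ASV2893 made up 0.327, 0.0862, 0.0809 and 0.0392% in knockouts 1 to 4 and 0.0211, 0.262, 0.195 and 0.516% in controls 1 to 4, again without separation (log2 fold change 0.036 ± 1.14, adjusted p = 0.999). ASV2898 had 194, 599 and 16 reads in knockouts 1, 2 and 4 and 29 and 269 in controls 1 and 4, and 0 in the other 3 mice, where up to 0.134% of the genus could have been missed.

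Within the genus, ASV2881 held 20.7, 60.2, 75.1 and 51.5% of Helicobacter reads in knockouts 1 to 4 and 94.7, 76.5, 36.6 and 52.3% in controls 1 to 4. ASV2890 held 73.3, 20.4, 20.2 and 44.8% in the same knockouts and 4.00, 19.0, 60.0 and 37.3% in the controls. Each variant led in mice of both genotypes, ASV2890 in knockout 1 and control 3 and ASV2881 in the others. The share of ASV2881 within the genus averaged 51.8% ± 23.0 in knockouts and 65.0% ± 25.7 in controls (two-sided exact permutation p = 0.457, adjusted p = 0.686 over 30 genera). The difference of -13.2 percentage points was -2.78 without knockout 1 and -3.27 without control 1. None of the 30 genera was called in this test (0%). With 4 mice per group, complete separation of a single genus on its own would not reach an adjusted p below 0.05. The 0 therefore gives no evidence that variant shares were alike in the genotypes.

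**Figure D2:**
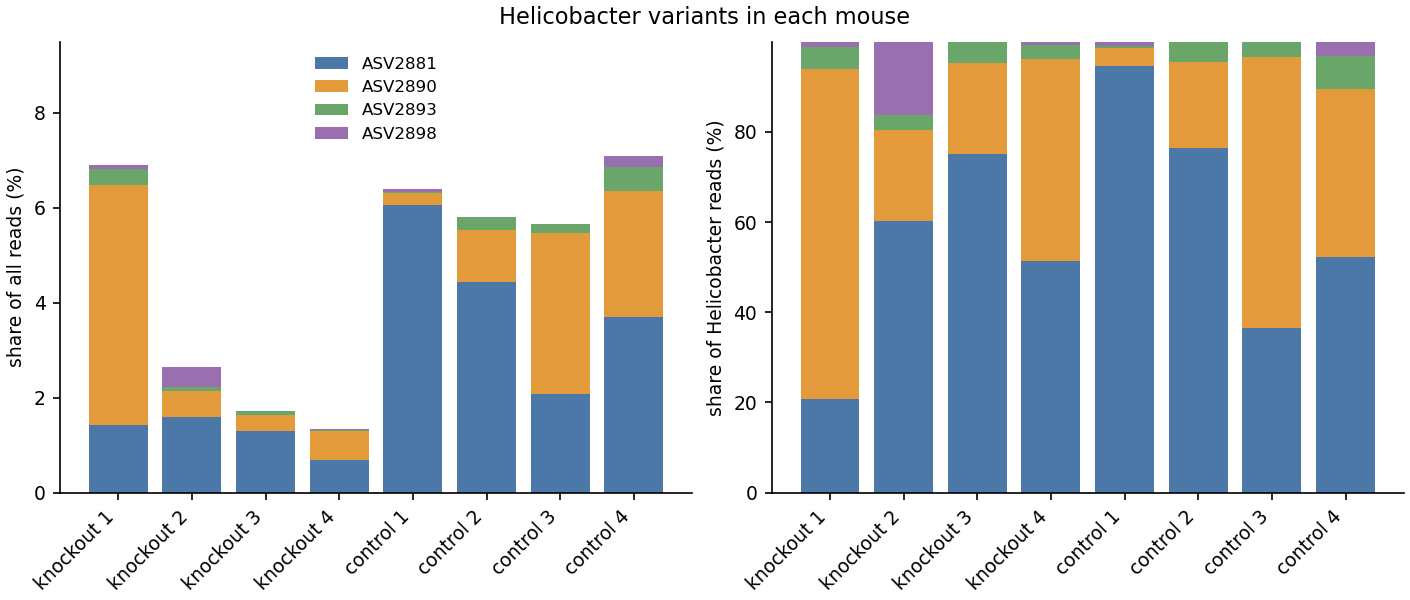
Stacked shares of the 4 Helicobacter ASVs in each mouse, as a share of all reads on the left (%, linear axis from 0) and of Helicobacter reads on the right (%, bars reach 100). Knockout 1 matches the controls in total (6.89%) while 73.3% of its Helicobacter reads are ASV2890; control 1 has 94.7% ASV2881.

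The ratio of ASV2890 to ASV2881 was 3.55, 0.338, 0.269 and 0.871 in knockouts 1 to 4 and 0.0422, 0.249, 1.64 and 0.712 in controls 1 to 4. The SD of its log2 was 1.95, above the median of 1.14 for within-genus pairs and far above the 0.26 of the Turicimonas pair. ASV2893 followed ASV2890 more closely than ASV2881, with SDs of 0.89 and 1.79. Variants of a genus thus ranged from a nearly fixed proportion in Turicimonas to changes of dominance in Helicobacter.

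Turicimonas and Helicobacter stood in opposite order in the genotypes. Reads of Turicimonas per read of Helicobacter numbered 1.20, 1.78, 1.62 and 7.47 in knockouts 1 to 4 and 0.723, 0.188, 0.346 and 0.335 in controls 1 to 4. Turicimonas exceeded Helicobacter in every knockout and lay below it in every control, and this ratio within a mouse needs no scaling between libraries. Its log2 averaged 1.17 ± 1.18 in the knockouts against -1.50 ± 0.80 in the controls (SD, n = 4 each), a difference of 2.67. Ratios were computed between the 49 tested genera or unnamed groups with reads in all 8 mice, 7 of them members. Of these 1176 ratios, 104 (8.84%) did not overlap between the genotypes, and of the 21 between the 7 members 1 did not, the ratio given here. The ratio was picked out for its separation and was not tested.

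**Figure D3:**
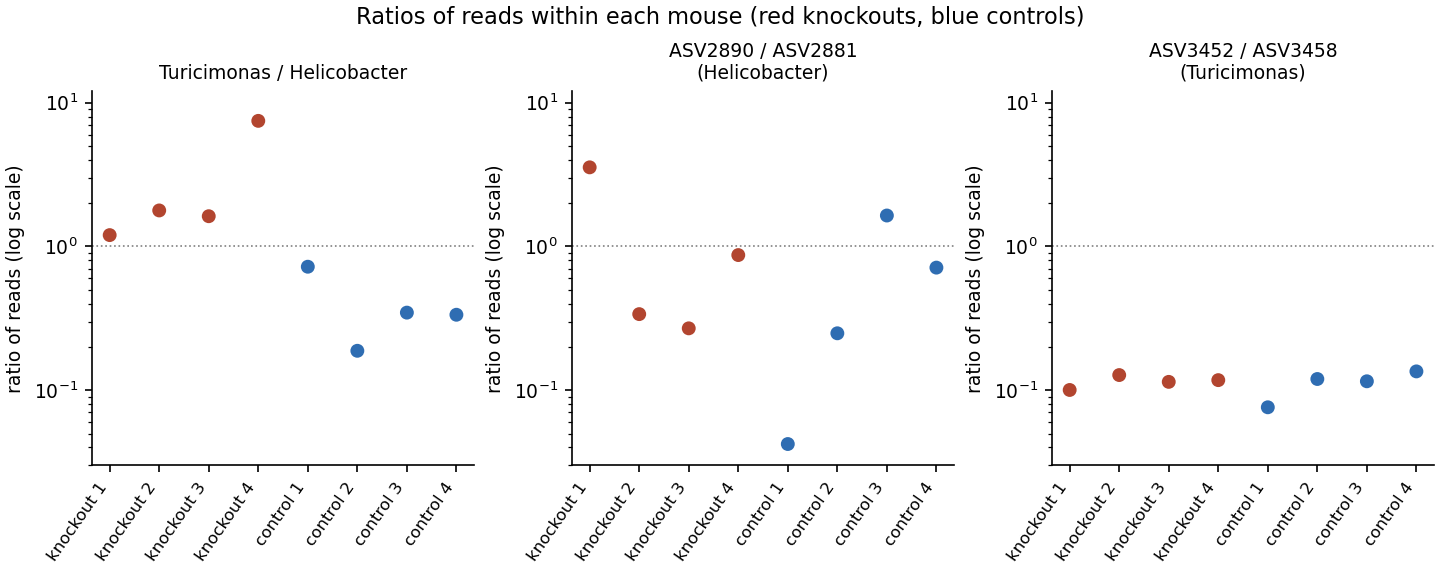
Ratios of reads within each mouse on a log axis (knockouts red, controls blue; the dotted line marks 1). Turicimonas over Helicobacter lies above 1 in the 4 knockouts (1.20 to 7.47) and below 1 in the 4 controls (0.188 to 0.723); ASV2890 over ASV2881 ranges from 0.0422 to 3.55 with no order by genotype; ASV3452 over ASV3458 stays between 0.0761 and 0.135.

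Thermodesulfobacteriota, here all Desulfovibrionaceae, were lower on average in knockouts, by less than the SD of the controls and more than that of the knockouts. They made up 0.543, 0.525, 0.655 and 0.353% of reads in knockouts 1 to 4 and 0.387, 0.565, 0.953 and 1.36% in controls 1 to 4, or 0.519% ± 0.125 against 0.816% ± 0.432 (SD, n = 4 each). Controls 3 and 4 lay above the other mice, and controls 1 and 2 lay within the knockout range (difference of -0.297 percentage points, two-sided exact permutation p = 0.257, adjusted p = 0.5, and -0.116 points without control 4). Most of these reads had no genus name and belonged to ASV2929, which had 0.389, 0.353, 0.515 and 0.235% in knockouts 1 to 4 and 0.315, 0.430, 0.788 and 1.16% in controls 1 to 4 (log2 fold change -0.25 ± 0.60 SE, edgeR adjusted p = 0.999). A second unnamed variant, ASV2920, had 192, 41, 12 and 5 reads in knockouts 1 to 4 and 0, 10, 17 and 36 in controls 1 to 4 (log2 fold change 1.59 ± 1.47, adjusted p = 0.845). The unnamed group as a whole had a log2 fold change of -0.076 ± 0.60 (adjusted p = 0.989), and of -0.94 without knockout 1. ASV2920 made up 17.9% of it in knockout 1 and at most 7.69% in the other mice.

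Desulfovibrio, the genus of sulfate reducers, had group means closer together than the SD of either group. It made up 0.0446, 0.134, 0.116 and 0.115% of reads in knockouts 1 to 4 and 0.0718, 0.109, 0.134 and 0.148% in controls 1 to 4, or 0.102% ± 0.0395 against 0.116% ± 0.0335 (SD, n = 4 each; log2 fold change 0.35 ± 0.58 SE, edgeR adjusted p = 0.958). Apart from knockout 1 the genus spanned only 0.0718 to 0.148%. The knockouts differed from one another in which variants made it up. ASV2838 held 29.7, 83.3, 85.4 and 100% of Desulfovibrio reads in knockouts 1 to 4 and 100, 100, 96.3 and 100% in controls 1 to 4 (74.6% ± 30.8 against 99.1% ± 1.85, two-sided exact permutation p = 0.143, adjusted p = 0.536 over 30 genera). The difference of -24.5 percentage points was -9.49 without knockout 1.

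Most of the other Desulfovibrio reads in knockouts were ASV2924, which had 45, 25 and 22 reads in knockouts 1 to 3 and 0 in knockout 4 and all controls. It entered the test only through the knockouts, so its fit is not a test of the difference. With 0 reads in all controls, its fitted log2 fold change (7.25, with no usable SE) is not an estimate of size. Its share in the 3 mice was 0.0170 to 0.0199%, above the 0.00246 to 0.00778% that a count of 0 allows in the controls. ASV2838 itself had 30, 155, 129 and 173 reads in knockouts 1 to 4 and 34, 42, 78 and 181 in controls 1 to 4 (log2 fold change 0.015 ± 0.80 SE, edgeR adjusted p = 0.999). ASV2871 added 26 reads in knockout 1 and 3 in control 3, and ASV2812 added 6 in knockout 2. Bilophila had 56, 12, 19 and 0 reads in knockouts 1 to 4 and 0, 0, 2 and 23 in controls 1 to 4, all from ASV2919, with shares of 0.0120% ± 0.0104 against 0.00554% ± 0.00901 (log2 fold change 1.81 ± 1.62 SE, adjusted p = 0.958, and -0.15 without knockout 1). The groups overlapped, and knockout 1 held exactly 56 of the 112 reads of the genus.

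Deferribacterota were Mucispirillum throughout. The genus made up 0.144, 0.351, 0.0932 and 0.0366% of reads in knockouts 1 to 4 and 0.158, 0.355, 0.248 and 0.132% in controls 1 to 4, or 0.156% ± 0.137 against 0.223% ± 0.101 (SD, n = 4 each). Knockout 2 and control 2 were the highest, nearly equal, and the groups overlapped. The difference of -0.0671 percentage points had a two-sided exact permutation p of 0.429 (adjusted p = 0.5), and the edgeR log2 fold change of 0.022 ± 0.73 (SE, adjusted p = 0.989) changed sign with the scaling, to -0.51 with totals only. The tested variant ASV2854 had a log2 fold change of -0.41 ± 0.86 (adjusted p = 0.999).

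Mucispirillum of knockouts 1 and 2 contained a variant that the other 6 mice did not show. ASV2856 had 94 and 171 reads in these mice, which is 28.7 and 35.0% of their Mucispirillum reads, and 0 reads elsewhere. In the other 6 mice a count of 0 allows at most 1.86 to 5.45% of the genus. A minor variant, ASV2842, had 2 to 16 reads in 4 mice. It made up 1.02% of the genus in knockout 2, 9.09% in knockout 4, 2.67% in control 1 and 9.94% in control 4.

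Verrucomicrobiota were the rarest of the 5 phyla, with 59, 89, 12 and 2 reads in knockouts 1 to 4 and 5, 18, 9 and 13 in controls 1 to 4, and at a mean share below 0.1% the phylum did not enter the permutation test. In the edgeR fit of phyla its log2 fold change was 0.35 ± 1.03 (SE, adjusted p = 0.738). Akkermansia had 47, 74 and 2 reads in knockouts 1, 2 and 4 and 0 in knockout 3 and the 4 controls. Its highest share was 0.0532%, in knockout 2. Puniceicoccaceae without a genus name, a family best known from the sea, supplied the other reads, nearly all through ASV2542, with 12, 10, 12 and 0 reads in knockouts 1 to 4 and 5, 18, 9 and 13 in controls 1 to 4. As shares these were at most 0.00925% in knockouts and at least 0.0106% in controls, so ASV2542 is the other member ASV without overlap (9.81% of all ASVs tested). Its counts overlapped, and the test did not separate the groups (log2 fold change -1.50 ± 1.44 SE, edgeR adjusted p = 0.845).

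Knockouts 1 and 2 shared several rare members. Some ASVs had at least 10 reads in both mice of a pair and at most 2 reads in each of the other 6 mice. Over the 28 pairs of mice, 27 such ASVs were found, and 8 of these belonged to knockouts 1 and 2. No other pair had more than 3. The rule counts reads and not shares. In the shallower control libraries 10 reads are a larger share, so rare variants shared by those mice meet the rule less easily. Members accounted for 4 of the 8, and none of the other pairs had a member. They were Akkermansia ASV2470, Mucispirillum ASV2856 and the Rhodospirillales variants ASV2514 and ASV2504. ASV2514 had 37 and 100 reads, or 43.5 and 14.7% of the unnamed Rhodospirillales in knockouts 1 and 2, and ASV2504 had 35 and 72, with 2 more in control 2. The labels do not say which mice shared a cage or litter, so whether these mice did was not tested.

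More member variants were seen in these 2 mice than in the other 6. The number of member ASVs with reads was 24, 27, 16 and 17 in knockouts 1 to 4 and 15, 13, 15 and 18 in controls 1 to 4. Computed for an equal depth of 38578 reads, the numbers were 23.1, 25.4, 15.6 and 15.1 in knockouts and 15.0, 13.0, 14.8 and 17.5 in controls, so that knockouts 3 and 4 lay within the range of the controls. Over all ASVs of the table, knockout 2 had the most at this depth (313), while knockout 1 had 212, within the 201 to 274 of the controls. The group means at equal depth were 19.8 ± 5.20 and 15.1 ± 1.85 (SD, n = 4 each). A core of 10 member ASVs was found in all 8 mice and held 96.0% of member reads, while 12 ASVs found in 1 mouse each held 1.50%. The 19 member ASVs that did not enter the test held 2264 reads (2.24% of member reads), of which 1445 were the Turicimonas variant ASV3462 of knockout 1.

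**Figure D4:**
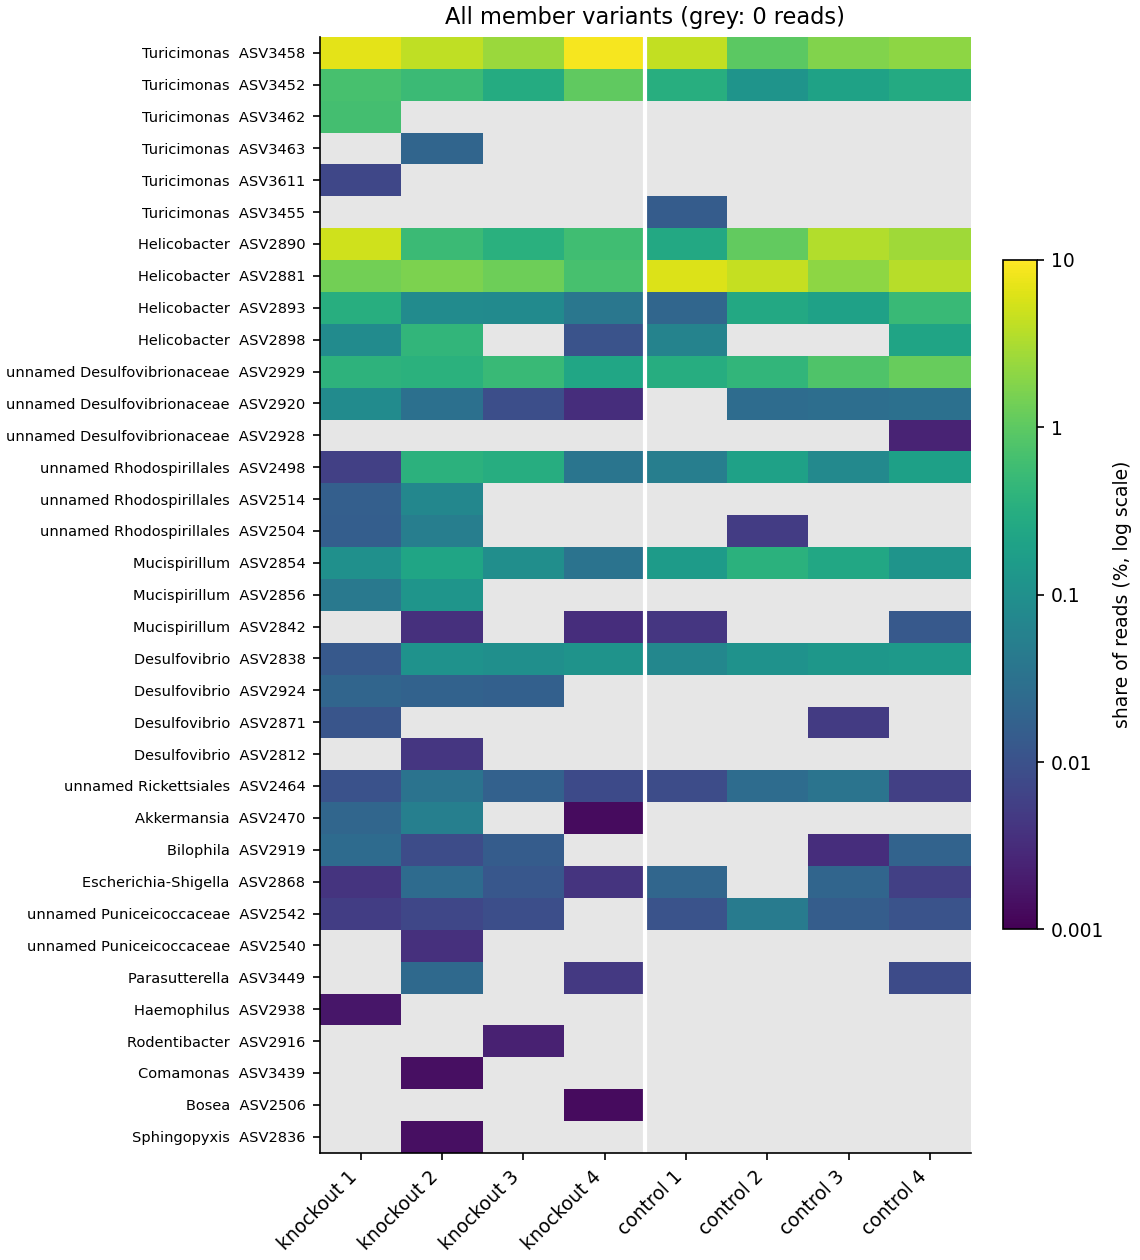
Share of reads (%, log colour scale from 0.001 to 10; grey marks 0 reads) of all 35 member ASVs, grouped by genus in rows, in the 4 knockouts and 4 controls in columns. The 10 ASVs without a grey cell hold 96.0% of member reads, and the rows filled in knockouts 1 and 2 only, such as ASV2856 and ASV2514, show the variants these mice share.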

How the data were processed

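The values are raw read counts per ASV, deposited by the authors and made with DADA2 as the table's name states. Per the labels' protocols, V4 was amplified from stool DNA and sequenced in pairs on a MiSeq. R 4.5.1 and limma appear in the submitters' processing notes with no stated role. How reads were filtered, chimeras removed and taxa assigned is not given in the sources used here. Shares are reads over all reads of a mouse. ASVs and genera were tested with edgeR 4.0.16 (R 4.3.3, robust quasi-likelihood test, TMM), and standard errors come from the fitted model. Phyla and leading variants were tested by exact permutation in Python 3.11.15 with SciPy 1.17.1, all with Benjamini-Hochberg adjustment. The edgeR fit of ASVs was checked on simulated counts, and the permutation test on fixed values with a known answer. All p-values treat the 8 mice as independent samples. Alternatives were DESeq2 1.42.0, limma 3.58.1 (voom, or log-ratios centred per mouse after adding 0.5 reads), other scalings and filters, rarefied counts and left-out mice. The members, lists and tests were chosen with earlier results of these data known. Named with values were every member genus and phylum and every member ASV tested, the others by counts, or by name where they were found in few mice, after their values were seen. Mitochondrial reads (0.0140 to 0.0752% per mouse) stayed in the totals.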

Additional observations from a re-analysis of the deposited data

Results flagged for a closer look

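Among 67 groups of 4 mice examined, 15 had a mouse so far from the nearest of the others, relative to the range of the 4, that it passed Dixon's test at 95%. Chance flags about 1 group in 20, and several of the 15 rest on the same reads. In 6 of the 15 the other 3 mice had 0 reads, so that a single read would already pass. These are Bosea in knockout 4 (0.00133% of reads), Comamonas in knockout 2 (0.00144%), Sphingopyxis in knockout 2 (0.00144%), Haemophilus in knockout 1 (0.00176%), Rodentibacter in knockout 3 (0.00231%) and Parasutterella in control 4 (0.00819%).

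Knockout 1 stood apart in 3 tested variants. Its Helicobacter variant ASV2890 made up 5.06% of reads against 0.348 to 0.600% in the other knockouts, and ASV2893 of the same genus 0.327% against 0.0392 to 0.0862%. Its Desulfovibrio variant ASV2838 was low, at 0.0132% against 0.0994 to 0.115%. Knockout 4 had 0% of the Desulfovibrio variant ASV2924, which made up 0.0170 to 0.0199% in the other knockouts.

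Control 2 had 0.0467% of ASV2542, and the same value for unnamed Puniceicoccaceae and for Verrucomicrobiota, since its reads of this phylum were all of that variant. The other controls had 0.0106 to 0.0149%. Control 1 had 0% of the Desulfovibrionaceae variant ASV2920, against 0.0259 to 0.0295% in the other controls. In control 3 the leading variant held 96.3% of Desulfovibrio reads, against 100% in the other controls, a gap of 3 reads.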

How the results depend on the processing

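No alternative called a member ASV (18 alternatives, 0 to 6 with an unadjusted p below 0.05) or a member genus (19 alternatives, 0 to 2). Of 352 alternative values, 309 kept their direction and their side of the threshold, 40 reversed and 3 passed the threshold. The 309 include the 18 and 19 counts of called members, which are all 0 and have no direction. They also include the number of member variants seen at equal depth, which has no threshold. The causes of changes were not tested. The 3 are edgeR fits of Pseudomonadota counts chosen after seeing the data, with the TMM factors of the ASV table. The log2 fold change was 2.10 with mitochondria counted in (adjusted p = 0.00876), 2.12 over phyla of at least 0.1% (adjusted p = 0.0255) and 2.10 with both (adjusted p = 0.0265). It was 2.12 without either (adjusted p = 0.202). Helicobacter (0.047 as reported) turned to -0.98 with totals only, -0.013 with TMMwsp, -0.70 with limma-voom, -0.74 with centred log-ratios, -0.042 with rarefied counts, -2.24 with log2 library size, -0.097 with the TMM factors of the ASV table and -1.66 without knockout 1 and control 2 together. Under these settings in turn, Mucispirillum turned to -0.51, -0.019, -0.26, -0.31 and -0.077 for the first 5 and to -0.18 without both mice. ASV2890 turned to -0.18 with totals only, -0.086 with limma-voom, -0.22 with centred log-ratios, -3.58 with log2 library size and -1.69 without both mice. Desulfovibrio turned to -0.18 with totals only and -0.086 with log2 library size, and Bilophila to -2.04 with log2 library size and -0.33 without both mice. Leaving out 1 mouse at a time gave log2 fold changes from -1.70 to 0.40 for Helicobacter, -0.94 to 0.38 for unnamed Desulfovibrionaceae, -0.15 to 4.11 for Bilophila, -0.54 to 0.45 for Mucispirillum, 0.14 to 1.10 for unnamed Rhodospirillales, 0.016 to 0.54 for Desulfovibrio and -1.41 to 1.35 for ASV2890. Leading-variant differences ran from -32.9 to -9.49 percentage points for Desulfovibrio, -22.7 to -2.78 for Helicobacter and -6.16 to -0.67 for unnamed Desulfovibrionaceae, in each case smallest without knockout 1. Deferribacterota turned to 0.0170 percentage points as a share of reads outside the most abundant family, and to a log2 fold change of 0.049 with the TMM factors of the ASV table, over all phyla and over those of at least 0.1%. The leading-variant difference of Helicobacter was 1.04 percentage points without knockout 1 and control 2. Bilophila had too few reads for a fit on rarefied counts or with 10 reads in 5 mice. No paired analysis was possible because the labels give no number shared between the genotypes. Controls 1 to 3 limit the detection of rare members, with 38578 to 60552 reads.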
